A study of Rattus norvegicus with 24 samples.

Results

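The genes for the subunits of respiratory complexes II to V were examined in the whisker follicles and the striatum of methamphetamine (MA) self-administered and saline (SA) self-administered rats. Members were all rows of the deposited expression table whose symbol was Sdha to Sdhd or Cyc1, or began with Uqcr, Cox4i, Cox5, Cox6, Cox7, Cox8 or Atp5. The rule gave 47 of 17711 rows and 46 symbols: 4 rows of complex II, 9 of complex III, 16 of complex IV and 18 of complex V. The table uses older rat names for complex V, and the current names given here beside them come from RefSeq. Atp5s (now Dmac2l) and Atp5sl (now Dmac2) entered through their names, and they are not subunits of the enzyme. Cox7a2l codes for a factor that joins complexes III and IV in supercomplexes. Cox6b1, Cox7a1 and Cox7b2 were not analysed here.

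Complex II (succinate dehydrogenase) passes electrons from succinate to ubiquinone, complex III passes them to cytochrome c, and complex IV (cytochrome c oxidase) passes them to oxygen. Complexes III and IV pump protons across the inner mitochondrial membrane, and complex V (ATP synthase) lets the protons flow back and makes ATP. A few large subunits hold the catalytic sites, whereas many small subunits surround them, and several subunits of complex IV exist as tissue isoforms coded by separate genes. Neurons depend heavily on this pathway, while the matrix cells of a growing hair follicle are known for a high rate of glycolysis.

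The study had 4 groups of 6 libraries each, 24 in all: whisker follicle of MA rats, whisker follicle of SA rats, striatum of MA rats and striatum of SA rats. All were Sprague-Dawley rats that pressed a lever for intravenous infusions of MA or of saline, and both tissues were taken from the same animals. The RNA was from whole tissue, so the values are averages over its cell types, and fewer cells of a type cannot be told apart from less RNA per cell. Libraries are named here by group and by the index 0 to 5 of their column, which the labels tie to no single rat. Values are FPKM (fragments scaled by transcript length and by the mapped total of the library). They allow a rough comparison of levels between genes, which is less certain for members with pseudogene copies.

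Several facts of the whole table bear on the members. The summed FPKM of a library lay between 774567 and 1387585 in MA follicles and between 1005812 and 1524572 in SA follicles, against 361025 to 418892 in MA striata and 348717 to 371477 in SA striata. The smallest steps of the low values gave an estimate of the depth relative to 1 SA library of each tissue. It holds only if the mapped total was the sole scaling between libraries. The estimate was 0.598 to 1.13 in MA follicles, 0.539 to 1.00 in SA follicles, 0.888 to 1.20 in MA striata and 0.956 to 1.05 in SA striata. The follicles held hair shaft keratins, such as Krt86 at a mean of 31933 FPKM in MA and 20990 FPKM in SA, and the striatal neuron markers summed to at most 28.2 FPKM there. In the striatum the same neuron markers summed to at least 2815 FPKM. Among the SA follicles, library 0 had the lowest summed level of the members, at 11459 FPKM, against 23133 to 42886 FPKM in the other 5. Calls and medians of the follicle comparison are therefore given with and without it. This choice rests on the values of the members, so results without it are not independent evidence of a lower level in MA.

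In the whisker follicles, most small subunits of complexes III, IV and V averaged lower in MA rats than in SA rats. Several catalytic and core subunits of complexes III and V averaged near the same level, and no member passed the test over all genes. Whether this split follows the role or the transcript length of the subunits was not tested. Of the 43 members tested (mean FPKM of at least 1 in the 12 libraries), 35 had a lower mean in MA and 8 a higher one, and the median log2 difference was -0.37, against -0.01 over the 9138 genes tested. The median was -0.25 after quantile normalization and -0.21 at a common sum per library. limma with Benjamini-Hochberg adjustment called 0 members and 0% of all genes, a call needing an adjusted p below 0.05 together with a 1.5-fold difference, the smallest adjusted p among the members being 0.465. At an unadjusted p under 0.05, 4 members were lower, against 5.18% of all genes, and 1 was higher, against 5.25% of all genes. The MA and SA libraries overlapped for every member, where 0.285% of all genes had all MA libraries below all SA libraries and 0.197% had them above. For 28 of the 43 members all 6 MA libraries lay below the SA median, which held for 19.4% of all genes. The study used Cuffdiff, a different test, and called genes lower in MA follicles. A module of them was enriched for oxidative phosphorylation. The study's figures show several members as lower in MA follicles, so the direction is not independent evidence.

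The largest difference was in Atp5e (now Atp5f1e), the epsilon subunit of the F1 stalk of ATP synthase. Atp5e ranged over 643, 1159 and 1865 FPKM (lowest, median and highest) in MA follicles, against 613, 2410 and 4339 FPKM in SA follicles. Every MA library lay below the SA median, and the lowest value of all was that of SA library 0. Its log2 difference was -0.94 (SE 0.43; limma p = 0.0464, adjusted p = 0.465; exact permutation p = 0.0801, n = 6 each).

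Atp5l (now Atp5mg), the g subunit of the membrane part of ATP synthase, had 696, 1079 and 1520 FPKM in MA follicles, against 644, 2034 and 3003 FPKM in SA follicles. The groups overlapped only through SA library 0, the other 5 SA libraries being above every MA library. The log2 difference was -0.79 (SE 0.33; limma p = 0.0344, adjusted p = 0.465; exact permutation p = 0.0584).

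Atp5g3 (now Atp5mc3), 1 of the 3 genes for the proton-carrying c ring, had 342, 544 and 674 FPKM in MA follicles, against 289, 923 and 1496 FPKM in SA follicles. Uqcrb, a small subunit of complex III near its ubiquinone site, had 21.5, 34.7 and 51.4 FPKM in MA, against 22.9, 59.4 and 108 FPKM in SA. Cox7b, a small subunit of complex IV, had 279, 422 and 557 FPKM in MA, against 270, 644 and 821 FPKM in SA. For all 3 genes every MA library lay below the SA median, and for Atp5g3 the SA libraries other than the lowest lay above every MA library. For Uqcrb 1 MA library was also below every SA library. The log2 differences of Atp5g3, Uqcrb and Cox7b were -0.72, -0.70 and -0.57, with unadjusted limma p-values of 0.0522, 0.0533 and 0.0539.

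Atp5j (now Atp5pf), coupling factor 6 of the peripheral stalk, had 251, 365 and 493 FPKM in MA follicles, against 244, 552 and 789 FPKM in SA follicles. Cox7a2l had 188, 243 and 293 FPKM in MA, against 164, 377 and 494 FPKM in SA. Both had every MA library below the SA median, and log2 differences of -0.55 (Atp5j, exact permutation p = 0.0931) and -0.51 (Cox7a2l, exact permutation p = 0.0736). The most abundant member of the follicle was Atp5i (now Atp5me), the e subunit of the membrane part, at 891, 1523 and 2261 FPKM in MA and 788, 2792 and 5529 FPKM in SA. Its log2 difference was -0.81 (SE 0.40).

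**Figure D1:**
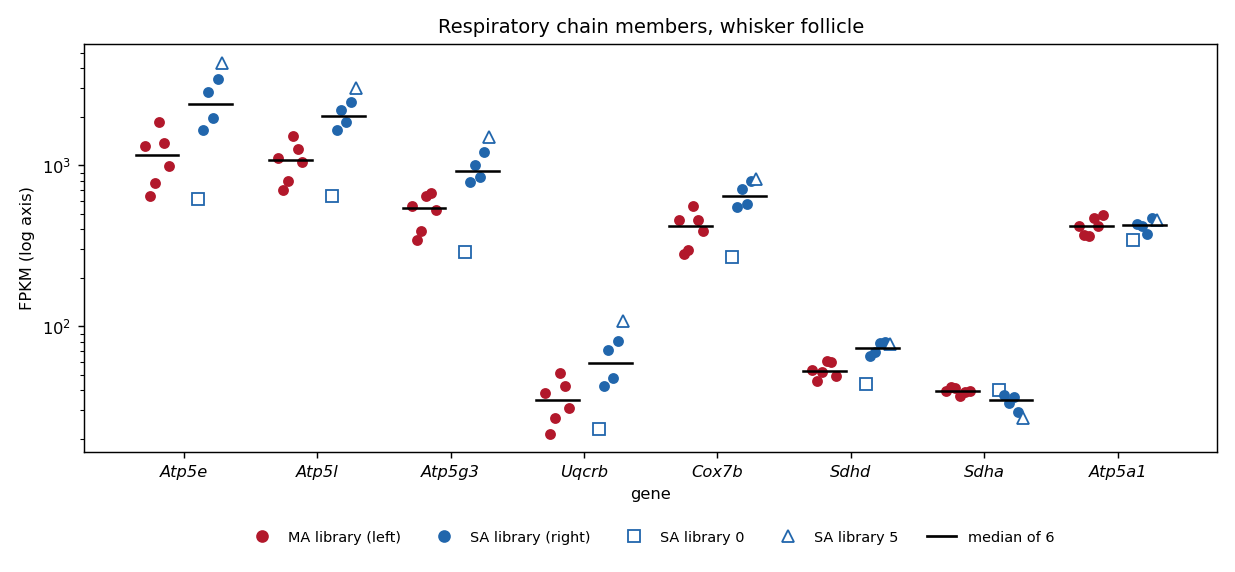
FPKM (log axis) of 8 members in each whisker follicle library, MA left of SA, with the median of 6 as a bar and SA libraries 0 and 5 as open symbols. Atp5e, Atp5l, Atp5g3, Uqcrb, Cox7b and Sdhd have every MA library below the SA median and SA library 0 lowest of its group, while Sdha runs the other way and Atp5a1 overlaps throughout.

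Complex II was split between its subunits. Sdha, the flavoprotein that oxidizes succinate, had 37.0, 39.6 and 41.8 FPKM in MA follicles, against 27.1, 35.0 and 40.3 FPKM in SA follicles, so that every MA library lay above the SA median. Its log2 difference was 0.23 (SE 0.11; limma p = 0.0478, adjusted p = 0.465; exact permutation p = 0.0260), the only member higher at an unadjusted p under 0.05. Sdhb, the iron-sulfur subunit, had 92.6, 112 and 124 FPKM in MA, against 82.2, 153 and 190 FPKM in SA. Sdhd, a membrane anchor, had 45.5, 52.5 and 60.5 FPKM in MA, against 43.6, 73.2 and 80.2 FPKM in SA. The log2 difference of Sdhd was -0.34 (SE 0.15; limma p = 0.0374; exact permutation p = 0.0476), that of Sdhb was -0.35 (SE 0.17) and that of Sdhc, the other anchor, was -0.28 (SE 0.17).

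Several catalytic and core subunits of complexes III and V were close between the groups. Atp5a1 (now Atp5f1a) and Atp5b (now Atp5f1b), the alpha and beta subunits of the F1 head, averaged 422 ± 52.3 and 617 ± 83.1 FPKM in MA follicles, against 416 ± 48.6 and 637 ± 85.4 FPKM in SA follicles (SD, n = 6). The log2 differences were 0.02 (SE 0.13) for Atp5a1 and -0.05 (SE 0.14) for Atp5b. Uqcrc1 and Uqcrc2, the core proteins of complex III, had log2 differences of -0.04 (SE 0.16) and 0.12 (SE 0.09), and Uqcrfs1, its Rieske iron-sulfur protein, 0.05 (SE 0.11). Cyc1, cytochrome c1, had 164, 239 and 276 FPKM in MA, against 144, 281 and 338 FPKM in SA, with a log2 difference of -0.20 (SE 0.21). Over 9 such subunits (Sdha, Sdhb, Uqcrc1, Uqcrc2, Uqcrfs1, Cyc1, Atp5a1, Atp5b and Atp5c1, grouped after their values were seen) the median log2 difference was -0.04. Over the other 29 members with a mean of at least 10 FPKM over all 24 libraries it was -0.52, with 1 above 0 (Cox5b). Cox6a2 averaged 12.8 FPKM in the follicles and was at 0.09, but its low striatal level kept it below that cut. The same 9 genes also varied less within groups. Their median coefficient of variation was 12.4% in MA and 15.0% in SA follicles. For the other 30 members with a mean of at least 10 FPKM within the group, Cox6a2 included, it was 27.7% and 38.5%. The set ran from -0.35 to 0.23. It included the F1 stalk gene Atp5c1 (-0.19) but not the stalk genes Atp5d (-0.47) and Atp5e (-0.94), so both contrasts depend on how it was drawn.

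Summarized by complex, the median log2 difference in the follicles was -0.31 for complex II, -0.52 for complex III, -0.37 for complex IV and -0.51 for complex V. Without SA library 0 these medians were -0.44, -0.74, -0.56 and -0.74. In complex III, Uqcr10, Uqcr11, Uqcrh, Uqcrq and Uqcrb, the 5 small subunits, lay between -0.70 and -0.52. In complex V, 16 of 18 rows were below 0. Atp5sl, which is no subunit, had 10.3, 11.2 and 11.9 FPKM in MA, against 11.2, 13.8 and 14.7 FPKM in SA, with a log2 difference of -0.22 (limma p = 0.0366; exact permutation p = 0.0238).

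Leaving out SA library 0 turned the members from uncalled to called in part. That library was picked for its low level of the members, so dropping it by itself moves the comparison toward lower in MA. Without it limma called 19 of 43 members, all lower in MA, against 6.05% of all genes called lower and 7.41% called higher. They were 10 members of complex V, 5 of complex IV and 4 of complex III. The log2 differences were then -1.30 for Atp5e (SE 0.31, adjusted p = 0.0211), -1.15 for Atp5i (SE 0.29, adjusted p = 0.0231), -1.08 for Atp5l (SE 0.22, adjusted p = 0.0178) and -1.03 for Atp5g3 (SE 0.22, adjusted p = 0.0187). Sdhb (-0.50, adjusted p = 0.0188) and Sdhd (-0.47, adjusted p = 0.0193) passed the adjusted p but not the fold, and Sdha was at 0.28 (adjusted p = 0.0559). Atp5a1 (-0.03), Atp5b (-0.12), Uqcrc1 (-0.14), Uqcrc2 (0.12), Uqcrfs1 (0.02) and Cox5b (0.00) had unadjusted p-values of at least 0.206 in that limma fit. Cyc1 (-0.36, adjusted p = 0.103) and Atp5c1 (-0.31, adjusted p = 0.118), which are also core subunits, lay further below 0 without passing. The median over the members was -0.61. A fit that weighted libraries by their agreement with the others gave SA library 0 a weight of 0.145, against 0.684 to 3.04 for the other 11 follicle libraries. It called the same 19 members, and 1160 of all 9138 genes. The weights came from the values of these same libraries and nearly removed SA library 0, so this fit is not independent evidence either. Without SA libraries 0 and 5, the lowest and the highest of the group, 3 of 43 members were called (Atp5l, Atp5g3 and Cox7a2l). Their smallest adjusted p was 0.0443. Of the 9078 genes in that fit, 16.2% were lower and 15.0% higher at an unadjusted limma p under 0.05. The number of all genes called in that fit is given in the last section.

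**Figure D2:**
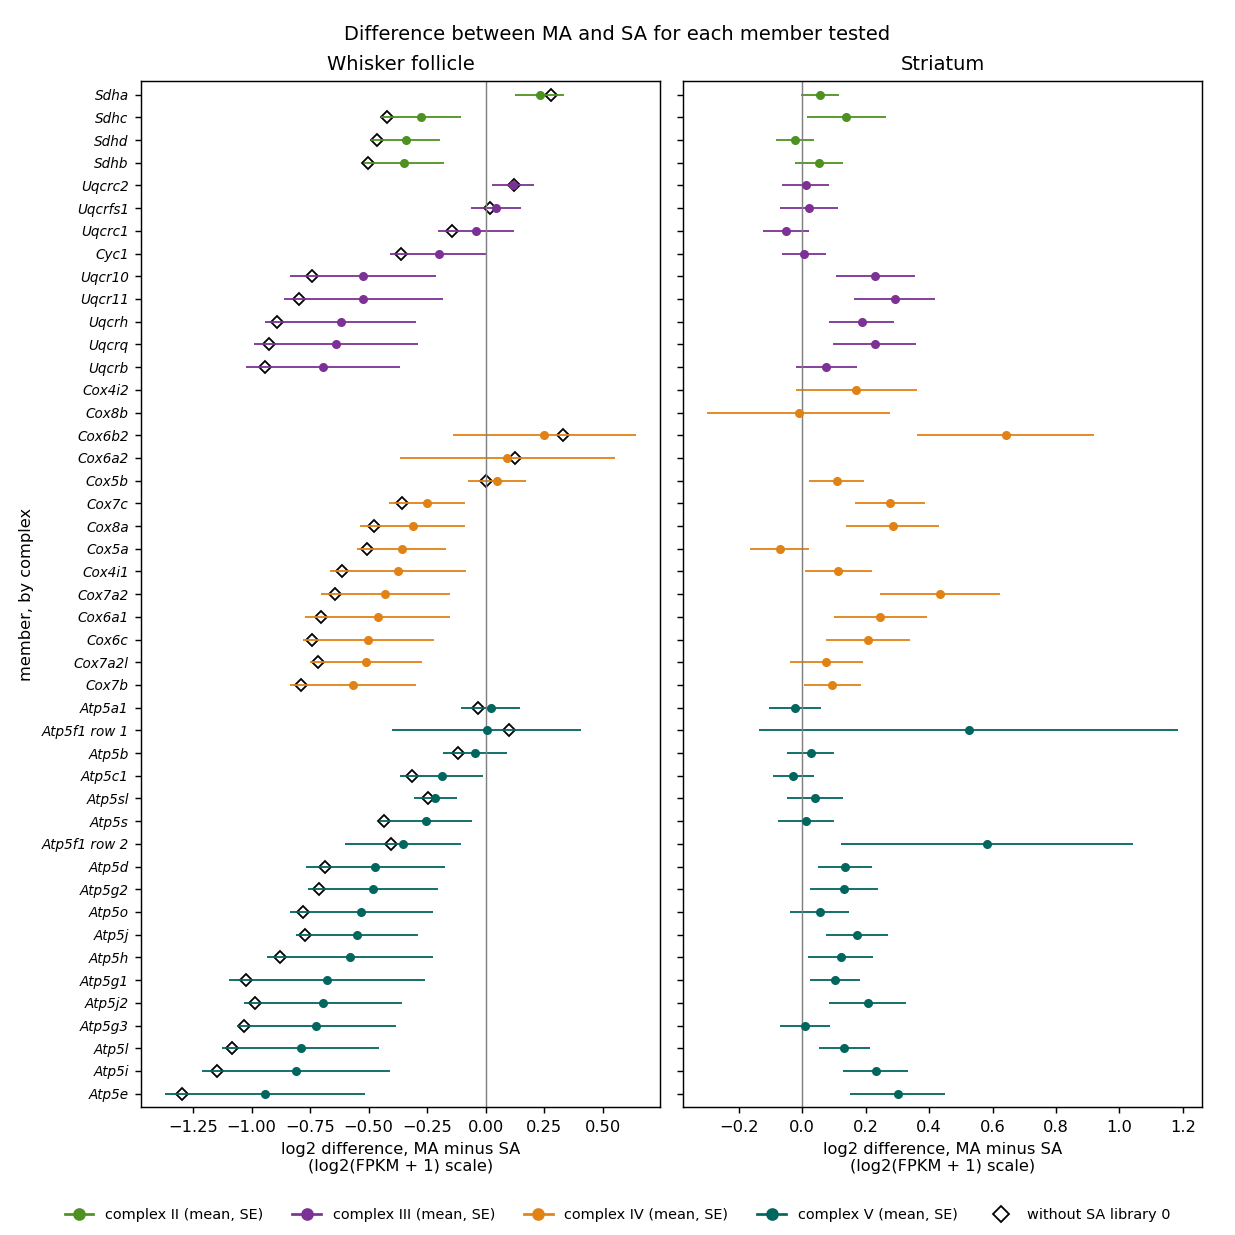
Log2 difference of each tested member, MA minus SA, with its SE (bars), by complex, in whisker follicle (left) and striatum (right), with the follicle value without SA library 0 as an open diamond. Most follicle values of complexes III, IV and V lie between -0.94 and -0.25 and are further down without SA library 0, whereas Atp5a1, Atp5b, Uqcrc1, Uqcrc2, Uqcrfs1 and Cox5b stay near 0, and most striatal values lie slightly above 0.

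A score per library, the median deviation of the members from their mean over the 12 libraries of the tissue on the log2 scale, showed the spread. In MA follicles the score ran from -0.62 (library 1) to 0.21 (library 3). In SA follicles it was -0.78 in library 0 and 0.08 to 0.69 in the other 5, with library 5 highest. MA libraries 1 and 2 and SA library 0 were thus the 3 lowest, and SA libraries 2, 4 and 5 the 3 highest. The members took 1.49% to 1.96% of the summed FPKM in MA follicles, against 1.10% in SA library 0 and 1.92% to 3.13% in the other 5 SA follicles.

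Other gene lists varied with this score. Of 83 tested genes for cytosolic ribosomal proteins, 78 were lower in MA follicles, with a median log2 difference of -0.49, and their score was lowest in SA library 0 (-0.95) and highest in SA library 5 (0.89). Of 32 complex I subunits, 29 were lower, with a median of -0.33. Of 25 assembly factors of complexes II to V, 22 were lower (median -0.27), among them Coa5, a cytochrome c oxidase factor, at -0.49 (limma adjusted p = 0.465), and Sdhaf3, a factor for the iron-sulfur subunit of complex II, at -0.93 (limma adjusted p = 0.465). Cycs, cytochrome c itself, was at -0.48 (limma adjusted p = 0.465). With the 6 carrier and channel genes on its list it made 7 genes that were all below 0 (median -0.11). The 13 enzymes of the TCA cycle, which supplies electrons to the chain, were divided, with 6 above 0 and a median of -0.02. Idh2, the NADP-dependent isocitrate dehydrogenase, was at 0.55 (limma adjusted p = 0.465). The 10 tested regulators of mitochondrial biogenesis had a median of -0.02. limma called no gene of these lists with all libraries. Without SA library 0 it called 6.05% of all genes lower and 7.41% higher. In that fit limma called 45 of 84 ribosomal protein genes lower (median -0.72), and 11 of 32 complex I subunits lower and 1 higher (median -0.50). It also called 6 of 25 assembly factors lower (median -0.34) and 1 of the 7 genes on the list of Cycs lower (median -0.20). In the same fit 3 of 13 TCA cycle enzymes and 1 of 10 biogenesis regulators were called higher, with medians of -0.01 and 0.00. Genes encoded by mitochondrial DNA were not analysed here.

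Hair shaft markers ran the other way. All 10 in the table had a log2 difference above 0 in MA against SA follicles (median 0.86, 4 at an unadjusted limma p under 0.05, 0 called), and their summed level was 34219 to 75060 FPKM in MA, against 16310 to 77671 FPKM in SA. The hair shaft score was highest in SA library 0 (1.11), the library with the lowest score of the members, and lowest in SA libraries 3 and 5 (-1.29 each). Without SA library 0 the median of the 10 was 1.35, and limma called 5 of them higher, against 7.41% of all genes. Skeletal muscle markers summed to at most 16.1 FPKM in MA and 24.3 FPKM in SA follicles. The 5 markers of epidermis and outer root sheath had a median of -0.11 (-0.08 without SA library 0) and summed to 23179 to 44678 FPKM in MA, against 21373 to 64861 FPKM in SA follicles. Their lowest sum was in SA library 0 and their highest in SA library 5, the libraries with the lowest and the highest sum of the members. Of 5 adipocyte markers only Fabp4, a fatty acid binding protein, passed the filter, at a mean of 6396 FPKM in MA and 11478 FPKM in SA follicles, while Adipoq and Plin1 were listed at 0 in all of them. Cidec and Lep averaged at most 0.021 FPKM in either follicle group, so the sum of the adipocyte list is that of Fabp4 almost alone. This sum was lowest in SA library 0 and highest in SA library 5. The log2 difference of Fabp4 was -0.76 (limma adjusted p = 0.466) and -1.13 without SA library 0, where it was called lower. The part of these cell types in the difference of the members was not tested.

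**Figure D3:**
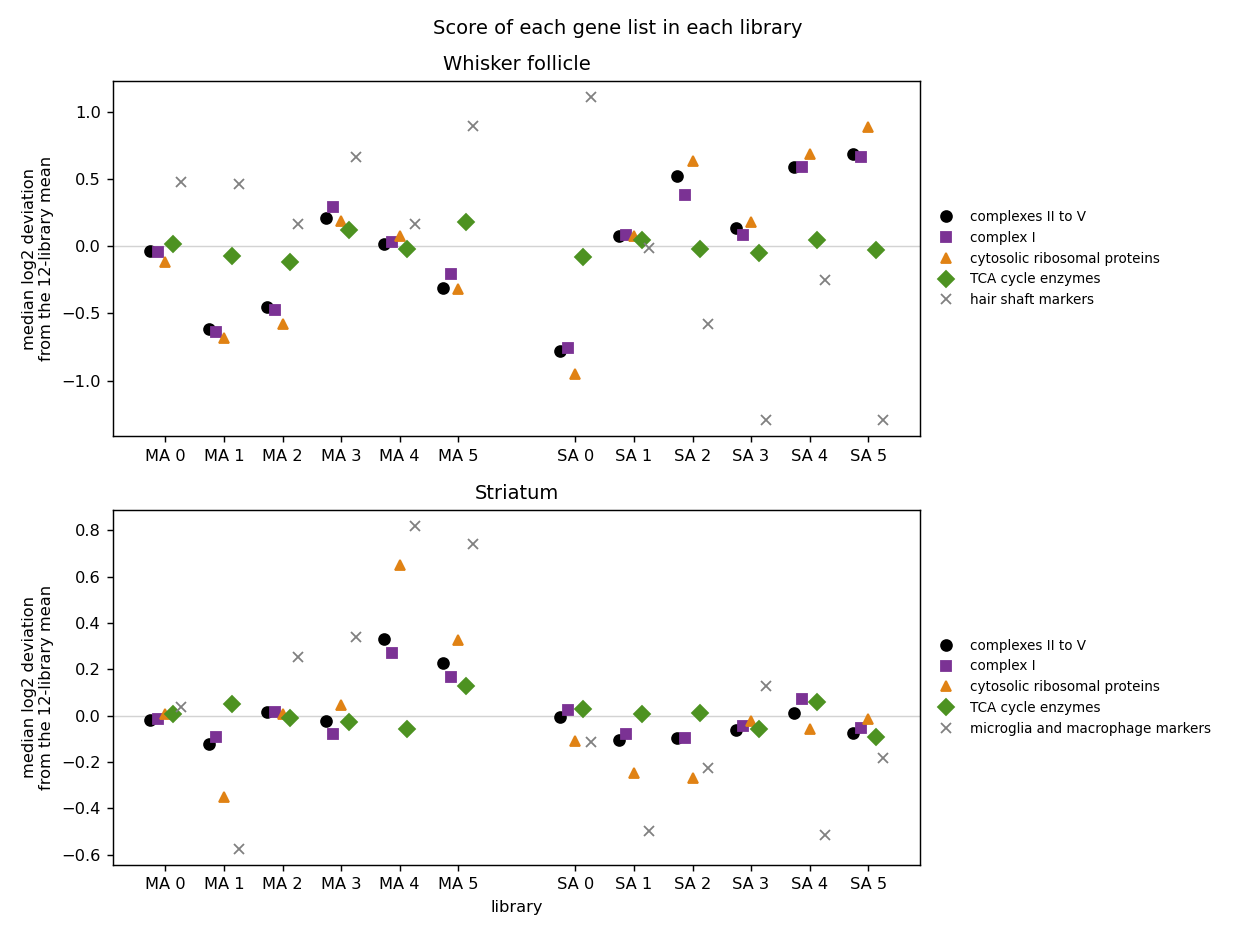
Score (median log2 deviation from the 12-library mean) of 5 gene lists in each whisker follicle library (top) and striatum library (bottom), MA left of SA. In the follicles the scores of complexes II to V, complex I and the ribosomal proteins move together and are lowest in SA library 0, where hair shaft markers are highest, and in the striatum they are highest in MA library 4.

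In the striatum the members were slightly higher in MA rats, and again none passed the test over all genes. Of the 44 members tested, 38 had a higher mean in MA and 6 a lower one, and the median log2 difference was 0.12, against 0.00 over the 10607 genes tested. The median was 0.02 after quantile normalization, with 28 members above 0, and 0.03 at a common sum per library, with 26 above 0. limma called 0 members, against 0.00943% of all genes, and the smallest adjusted p among the members was 0.589. At an unadjusted p under 0.05, 5 members were higher, against 5.38% of all genes, and 0 were lower, against 2.88%. The MA and SA libraries overlapped for every member, where 0.198% of all genes did not overlap with MA higher and 0.16% with MA lower. All 6 MA libraries lay above the SA median for 3 members (Sdha, Sdhb and Uqcrh), which held for 5.47% of all genes.

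Cox7c, a small subunit of complex IV, had 539, 654 and 852 FPKM in MA striata, against 489, 557 and 606 FPKM in SA striata. In MA, 5 of 6 libraries lay above every SA library, and the log2 difference was 0.28 (SE 0.11; limma p = 0.0255, adjusted p = 0.589; exact permutation p = 0.0195, n = 6 each). Cox7a2, another small subunit of complex IV, had 15.2, 22.9 and 28.7 FPKM in MA, against 9.02, 17.3 and 20.3 FPKM in SA, with a log2 difference of 0.43 (SE 0.19; limma p = 0.0382; exact permutation p = 0.0541). Uqcr11, a small subunit of complex III, had 765, 982 and 1265 FPKM in MA, against 692, 797 and 974 FPKM in SA, with a log2 difference of 0.29 (SE 0.13; limma p = 0.0397; exact permutation p = 0.0368). Atp5i had 769, 907 and 1145 FPKM in MA, against 776, 787 and 846 FPKM in SA, with a log2 difference of 0.23 (SE 0.10; limma p = 0.0407; exact permutation p = 0.0195), although its lowest library was an MA one.

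Cox6b2, known as the testis isoform of subunit 6b, was low in the striatum, at 2.07, 5.58 and 6.95 FPKM in MA and 1.33, 2.39 and 5.59 FPKM in SA. Its log2 difference of 0.64 (SE 0.28; limma p = 0.0383; exact permutation p = 0.0693) was the largest among the members, at a level where few reads stand behind each value. Atp5e had 327, 475 and 706 FPKM in MA striata, against 332, 384 and 425 FPKM in SA striata, and a log2 difference of 0.30 (SE 0.15). Cox8a, Uqcr10, Uqcrh and Uqcrq completed the 10 smallest p-values, with log2 differences of 0.29, 0.23, 0.19 and 0.23 and unadjusted limma p-values of 0.0722 to 0.102. The smallest exact p that 6 against 6 libraries allow is 0.00216.

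**Figure D4:**
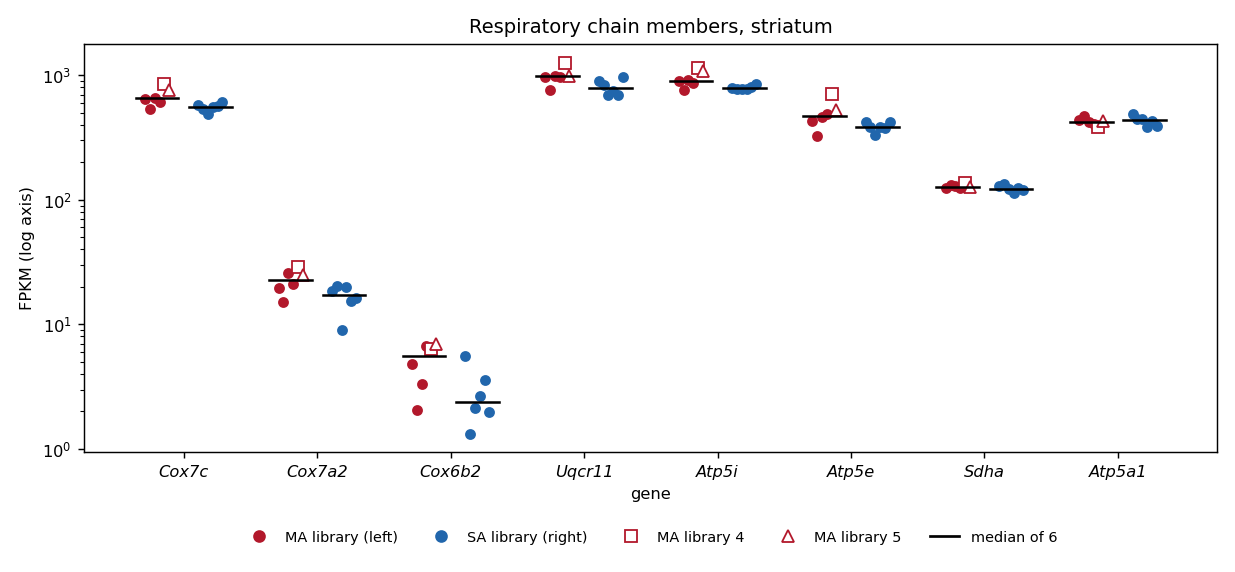
FPKM (log axis) of 8 members in each striatum library, MA left of SA, with the median of 6 as a bar and MA libraries 4 and 5 as open symbols. For Cox7c, Uqcr11, Atp5i and Atp5e most MA libraries lie above the SA range, with MA library 4 highest. Sdha and Atp5a1 overlap between the groups, Sdha with every MA library above the SA median.

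By complex, the striatal medians were 0.05 for complex II, 0.08 for complex III, 0.17 for complex IV and 0.13 for complex V. The 9 catalytic and core subunits, grouped as for the follicles, lay between -0.05 and 0.06. The other 29 members of at least 10 FPKM had a median of 0.14, with 27 above 0. Sdha averaged 129 ± 4.58 FPKM in MA and 124 ± 6.58 FPKM in SA, and Sdhd 101 ± 3.00 FPKM in MA and 102 ± 5.98 FPKM in SA (SD, n = 6). The spread of the members of at least 10 FPKM within MA striata (median coefficient of variation 14.3%) was above that within SA striata (7.24%).

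MA libraries 4 and 5 led the striatal differences. Their scores were 0.33 and 0.23, against -0.12 to 0.02 in the other 4 MA libraries and -0.11 to 0.01 in the 6 SA libraries. Without MA library 4 the median over the members was 0.06. Without MA library 5 no member had an unadjusted limma p under 0.05, while 5.48% of all genes were higher and 3.13% lower at that p. Without MA library 1, the lowest, 13 members were higher at that p, against 9.63% of all genes. In MA library 4 the scores of ribosomal proteins (0.65), astrocyte markers (0.71) and microglia and macrophage markers (0.82) were also the highest of the 12 libraries, and in MA library 5 the score of striatal neuron markers was -0.78, next to the lowest value, -0.80 in SA library 4. The 8 microglia and macrophage markers summed to 212 to 636 FPKM in MA striata, against 249 to 384 FPKM in SA striata, and the 12 neuron markers to 2816 to 6202 FPKM in MA, against 2815 to 6533 FPKM in SA. Over the marker lists, the log2 difference was above 0 for 8 of 8 microglia and macrophage markers (median 0.48), 5 of 6 astrocyte markers (0.37), 6 of 6 smooth muscle and pericyte markers (0.31), 5 of 5 endothelial markers (0.24), 4 of 5 fibroblast markers (0.40) and both tested erythrocyte markers (1.12), against 7 of 12 neuron markers (0.02) and 2 of 6 oligodendrocyte markers (-0.24). limma called none of these markers. The erythrocyte markers summed to 240 to 1933 FPKM in MA striata, highest in library 3, against 125 to 299.7 FPKM in SA striata. The part of these cell types in the difference was not tested.

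The related lists in the striatum were led by the ribosomal proteins, of which 62 of 67 tested were higher in MA, with a median log2 difference of 0.25. Of the 32 complex I subunits 27 were higher (median 0.08), with Ndufb2, an accessory subunit, at 0.24 (limma adjusted p = 0.603). The 26 assembly factors were evenly divided (13 above 0, median 0.00), as were the 13 TCA cycle enzymes (7 above 0, median 0.01). Cycs and the 6 carrier and channel genes listed with it had 2 above 0 and the 13 regulators of mitochondrial biogenesis 6. Esrrg, a nuclear receptor that drives mitochondrial genes, was at -0.50 (limma adjusted p = 0.577).

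The difference between the tissues in the effect of MA was tested with an interaction term over all 24 libraries, which treats the 2 tissues of a rat as independent. Of 42 members tested in both tissues, 37 were below 0, meaning a lower MA effect in follicle than in striatum, and the median was -0.59, against -0.02 over the 8212 genes tested. limma called 0 members, against 0.0244% of all genes, with a smallest adjusted p of 0.387. At an unadjusted p under 0.05, 18 members were below 0, against 7.67% of all genes, and 0 were above, against 4.82%. The 5 smallest p-values were those of Cox7c (-0.53, SE 0.20), Atp5e (-1.24, SE 0.47), Atp5l (-0.92, SE 0.36), Atp5j (-0.72, SE 0.29) and Cox7a2 (-0.86, SE 0.35), each with a limma adjusted p of 0.387. Without follicle SA library 0, limma called 24 of 42 members, all below 0, against 8.11% of all genes. This fit carries the same selection by the level of the members.

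The levels of the 2 tissues were compared in SA rats. As deposited, 20 of 45 members were called higher in the follicle and 6 lower, against 32% and 42.5% of all genes. This split turned with the scaling: after quantile normalization 10 were higher and 19 lower, and with all libraries brought to a common sum 2 were higher and 28 lower. The median over all genes was -0.24 as deposited and -1.78 at a common sum, and the members lay 0.65 above it in both cases but 0.44 below it (-0.44) after quantile normalization. Shares within a library, which a common factor for the library leaves as they are, are therefore given for the rest.

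Complex V took 53.1% ± 1.19 of the summed FPKM of the members in MA follicles and 57.0% ± 3.38 in SA follicles, against 40.4% ± 1.73 in MA striata and 41.6% ± 0.81 in SA striata (SD, n = 6). Every follicle library lay above every striatum library. Complex IV took 29.6% ± 1.14 in MA follicles and 26.9% ± 2.56 in SA follicles, against 40.2% ± 2.19 in MA striata and 38.9% ± 0.78 in SA striata. Complex III took similar shares, at 15.2% and 14.4% in MA and SA follicles and 15.6% and 15.4% in MA and SA striata. Complex II took 2.01% and 1.68% in MA and SA follicles, against 3.82% and 4.09% in MA and SA striata. Within the follicles the share of complex V was 51.7% to 54.4% in MA, below 56.2% to 61.5% in 5 SA libraries, with SA library 0 at 51.2%.

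The c ring of ATP synthase is coded by 3 genes whose mature proteins are the same. Atp5g2 (now Atp5mc2) took 62.5% ± 2.59 of their summed FPKM in MA follicles and 58.6% ± 3.80 in SA follicles, against 36.5% ± 2.95 in MA striata and 35.0% ± 1.43 in SA striata. Atp5g3 took 28.2% and 31.3% in MA and SA follicles, against 42.2% and 44.2% in MA and SA striata. Atp5g1 (now Atp5mc1) took 9.29% and 10.1% in MA and SA follicles, against 21.2% and 20.8% in MA and SA striata. Follicle and striatum libraries did not overlap in any of these 3 shares, while MA and SA overlapped in each tissue.

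**Figure D5:**
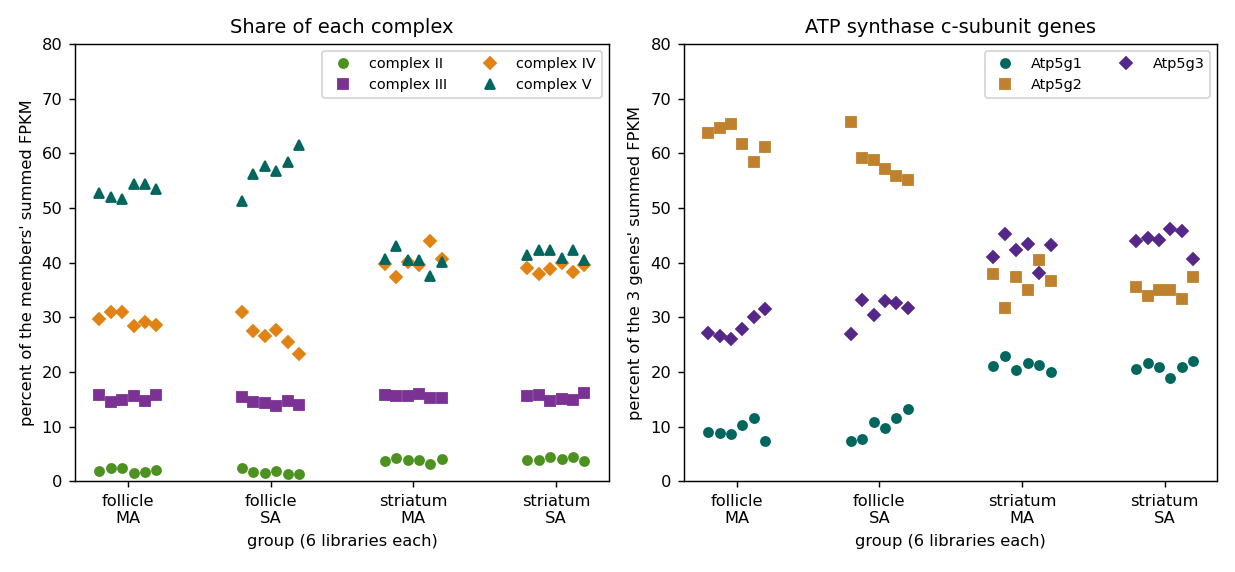
Share (%) of each complex in the summed FPKM of the members (left) and of each c-subunit gene in the sum of the 3 (right), 1 point per library, for whisker follicle MA and SA and striatum MA and SA. Complex V and Atp5g2 take larger shares in every follicle library than in any striatum library, complex IV and Atp5g3 smaller ones.

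The isoform pairs of subunits 4, 6a and 8 were dominated by the common gene in both tissues. Cox6a2, the heart and skeletal muscle isoform of subunit 6a, had 2.81, 12.2 and 30.1 FPKM in MA follicles and 4.68, 11.9 and 15.4 FPKM in SA follicles, against 0.00, 0.67 and 1.82 FPKM in MA striata and 0.231, 0.734 and 2.29 FPKM in SA striata. It took 1.37% ± 1.13 (MA) and 0.815% ± 0.528 (SA) of the sum with Cox6a1 in the follicle, against 0.058% (MA) and 0.083% (SA) in the striatum, and each follicle library lay above each striatum library. Cox4i2, the lung isoform of subunit 4, had 0.00, 0.34 and 0.88 FPKM in MA follicles and 0.00, 0.16 and 0.50 FPKM in SA follicles, against 2.04, 3.98 and 5.19 FPKM in MA striata and 1.89, 3.64 and 4.46 FPKM in SA striata. Its share of the sum with Cox4i1 was 0.380% in MA and 0.359% in SA striata and did not overlap with that of the follicles. Cox8b, a heart and muscle isoform of subunit 8, was at most 1.17 FPKM in the follicles and 4.02 FPKM in the striata. Cox8c, the testis isoform, and Cox6c-ps1, a pseudogene, were listed at 0 in all 24 libraries. Cox7a2l, the supercomplex factor, is not a tissue isoform. It took 85.8% and 86.6% of the sum with Cox7a2 in MA and SA follicles and 83.4% and 86.5% in MA and SA striata.

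In the striatum Cox6a1, Cox8a and Cox4i1 were highest, with means of 1399 ± 362, 1293 ± 326 and 1029 ± 169 FPKM in MA and 1153 ± 83.2, 1036 ± 60.0 and 941 ± 33.4 FPKM in SA, and these neighbours overlapped in their spread. In MA follicles Atp5i, Atp5e and Atp5g2 were highest, with means of 1519 ± 515, 1164 ± 451 and 1145 ± 233 FPKM. In SA follicles Atp5i, Atp5e and Atp5l were highest, at 2948 ± 1589, 2479 ± 1339 and 1978 ± 806 FPKM, and neighbours overlapped in both groups. Atp5f1 (now Atp5pb), the b subunit of the peripheral stalk, stood on 2 rows of at most 11.1 FPKM, far below the other stalk members Atp5h (now Atp5pd), Atp5j and Atp5o (now Atp5po), whose lowest value was 191 FPKM. How reads shared with processed pseudogenes were assigned is not given in the sources used here, so the levels of members with such copies are uncertain.

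Promoter sequences of RefSeq (GRCr8, 250 bases before to 50 after the annotated start) were found for 37 of the 46 symbols. The 4 letter patterns known for genes of the respiratory chain or as a comparison were searched on both strands: GCGCANGCG (the NRF1 motif), CCGGAAG (the ETS motif bound by GABP), AAGATGGCG (the YY1 motif) and TATAAA. The NRF1 letters were in 9 of 37 promoters (24.3%, against 5.80% of all 33469 promoters), the ETS letters in 13 (35.1%, against 8.75%), the YY1 letters in 3 (8.11%, against 1.73%) and TATAAA in 3 (8.11%, against 14.2%). Among the members described above, Sdha has 3 NRF1 matches and Uqcrc1 2, Atp5i has 2 overlapping NRF1 matches and an ETS match, and Atp5e, Cox7c and Atp5b have none of the 4. A match describes letters and is no evidence of binding. The promoters of Sdha, which was higher in MA follicles at an unadjusted p under 0.05, and of Sdhd and Atp5l, which were lower, and of Atp5i, the most abundant member there, are shown 5′ to 3′ on the strand of the gene, with matches to the NRF1, ETS and TATAAA letters in capitals.
Sdha, chr1:30764303-30764602, plus strand: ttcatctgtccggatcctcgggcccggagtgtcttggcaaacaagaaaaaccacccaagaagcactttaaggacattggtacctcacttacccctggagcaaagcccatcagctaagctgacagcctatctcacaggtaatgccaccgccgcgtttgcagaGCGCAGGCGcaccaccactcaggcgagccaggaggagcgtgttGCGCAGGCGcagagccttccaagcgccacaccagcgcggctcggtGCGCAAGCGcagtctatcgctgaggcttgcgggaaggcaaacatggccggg
Sdhd, chr8:59850592-59850891, minus strand: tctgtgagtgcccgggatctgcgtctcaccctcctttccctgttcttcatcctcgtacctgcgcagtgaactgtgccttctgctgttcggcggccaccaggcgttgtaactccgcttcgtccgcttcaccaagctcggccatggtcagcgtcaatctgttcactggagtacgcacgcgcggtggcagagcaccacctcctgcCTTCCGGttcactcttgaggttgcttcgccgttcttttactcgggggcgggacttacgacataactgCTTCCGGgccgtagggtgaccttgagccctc
Atp5l, chr8:54130358-54130657, minus strand: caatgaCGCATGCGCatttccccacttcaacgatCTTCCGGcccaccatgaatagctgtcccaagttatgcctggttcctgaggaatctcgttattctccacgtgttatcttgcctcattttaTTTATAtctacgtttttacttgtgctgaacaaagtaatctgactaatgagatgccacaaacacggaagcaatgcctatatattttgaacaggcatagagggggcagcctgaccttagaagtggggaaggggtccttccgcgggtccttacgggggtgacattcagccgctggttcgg
Atp5i, chr14:1464610-1464909, plus strand: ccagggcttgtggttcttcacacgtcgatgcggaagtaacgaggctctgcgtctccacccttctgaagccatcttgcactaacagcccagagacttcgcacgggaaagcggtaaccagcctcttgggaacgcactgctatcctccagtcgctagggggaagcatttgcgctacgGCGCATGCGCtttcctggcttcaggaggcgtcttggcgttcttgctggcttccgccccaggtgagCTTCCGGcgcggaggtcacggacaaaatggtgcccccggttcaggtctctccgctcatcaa
The 3 NRF1 matches of Sdha began 89, 46 and 1 bases before the start, and the ETS matches of Sdhd 48 bases before and 19 bases after it. In Atp5l the NRF1 and ETS matches lay far upstream, at 244 and 216 bases, and in Atp5i the ETS match lay 11 bases upstream.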

How the data were processed

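The authors sequenced poly(A) libraries (TruSeq) of whole striatum and whisker follicle and deposited FPKM values as 1 table for all 24 libraries. Tools named in the paper are Cutadapt, TopHat2 (rn6) and Cufflinks. The processing notes of the submitters give STAR 2.6.0c and Cufflinks 2.2.1 with bcl2fastq and rn6, so which aligner stands behind the FPKM is open. Scaling between libraries is not given in the sources used here. Columns were assigned to the 4 groups by name, with 0 columns left out. Read depth is unknown apart from the estimate of relative depth within a tissue, and errors are those among the 6 libraries of each group.

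Values were transformed to log2(FPKM + 1) and fitted with limma 3.58.1 in R 4.3.3 (two-sided, prior variance following intensity), keeping genes whose mean FPKM reached 1. P-values were adjusted by Benjamini-Hochberg over all genes kept, and a call needed an adjusted p below 0.05 together with a 1.5-fold difference. The pseudocount understates differences of low genes. Single genes were also compared by a two-sided exact permutation test (924 assignments, unadjusted). The fit was tested on simulated data. Members named with values were the 10 of smallest p per tissue, the isoform genes, the Sdh genes and Cyc1, the 3 highest and 3 lowest by level and the 5 of smallest interaction p; others named were chosen after their values were seen. The members, gene lists and markers were chosen with earlier results of these data known. Alternatives were the pseudocount, the filter, 3 scalings, no intensity trend, library weights and leaving out each library.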

Additional observations from a re-analysis of the deposited data

Results flagged for a closer look

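The values of the named members and the scores of the members and of each complex were searched for a library far from the other 5 of its group (60 groups of 6). Uqcrq in SA striata had a lowest value of 54.8 FPKM in library 2, with the nearest other library at 65.5 FPKM. Uqcr10 in SA striata had a lowest value of 230.3 FPKM, also in library 2, with the nearest other at 261.5 FPKM. Chance alone gives such a gap in about 1 of 20 groups, and 2 of the 60 were found here. SA library 0 of the follicle did not reach that gap in any of these groups.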

How the results depend on the processing

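No paired analysis was possible because the columns carry an index that the labels tie to no rat. The striatal median of complex II was -0.02 after quantile normalization and -0.04 at a common sum, and that of complex III -0.01 at a common sum, against 0.05 and 0.08 as reported. Between the tissues of SA rats, the median over the members was 0.41 as deposited, -0.35 after quantile normalization and -1.13 at a common sum. In the whisker follicles, weighting the libraries gave 1160 of 9138 genes called, 19 members called and 32 members lower at an unadjusted p under 0.05. At that p 21.5% of all genes were lower and 19.8% higher in the weighted fit. Leaving out SA libraries 0 and 5, chosen after seeing the data, gave 326 of 9078 genes called, 3 members called and 30 members lower. At the unadjusted p 16.2% of all genes were lower and 15.0% higher in that fit. Quantile normalization gave 8 members lower, against 6.61% of all genes, and 0 higher, against 4.59%. The common sum and the fit without a trend also gave 0 members higher, against 6.66% and 5.10% of all genes. Leaving out 1 library gave 0 to 1219 genes called, 0 to 19 members called, 0 to 32 members lower, 0 to 1 higher and a median over the members of -0.61 to -0.32; the highest counts of calls were without SA library 0. In the striatum, members higher at an unadjusted p under 0.05 numbered 3 with no filter, 1 with quantile normalization, 1 with a common median, 0 at a common sum and 0 without MA libraries 3 and 4 (chosen after seeing the data), and genes called numbered 0 with a mean FPKM of at least 5, at a common sum and without those libraries. Leaving out 1 striatum library gave 0 to 4 genes called, 0 members called and a median of 0.06 to 0.16. At an unadjusted p under 0.05 it gave 0 to 13 members higher, against 3.25% to 9.63% of all genes. The median over the striatal members was 0.02 after quantile normalization and 0.03 at a common sum, where the median over all genes was -0.08; in the follicles it was -0.21 at a common sum, where that over all genes was 0.14. For the difference between tissues, members with an unadjusted p under 0.05 numbered 11 at a common sum and 7 to 32, and members called 0 to 24, with 1 library left out. Between the tissues of SA rats, quantile normalization gave 10 members higher in the follicle and 19 lower, the common sum 2 and 28, and leaving out 1 library 20 to 23 higher and 4 to 7 lower. The cause of these shifts was not tested. FPKM hold no read counts, so counting error could not be set against the differences of low members such as Cox6b2.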
